A study of Mus musculus with 30 samples.

Results

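The cell fraction sorted as 4T1 from control tumours was set against CD8+ T cells taken from control tumours, gene by gene across the transcriptome. The comparison uses 10 of the 30 libraries of the series, chosen by their labels. They are 5 libraries of the sorted 4T1 fraction (4T1 CTRL, libraries 1 to 5) and 5 libraries of CD8+ cells (CD8 CTRL, libraries 21 to 25), whose raw counts were joined by gene identifier. Each library goes by its number in the deposited tables. Both groups are wild-type by their labels, came from tumours and received a control IgG1. The other arm of the series, used at the end, received C269, an antibody against extracellular NAMPT, at 2.5 mg/kg, and both arms were dosed 2 times a week for 1 month. The tumour cells were 4T1 carrying green fluorescent protein (GFP) and were sorted, whereas the T cells were pulled out with magnetic beads, so the populations differ in how they were isolated as well as in lineage. The labels do not say whether the 5 libraries of a group came from separate animals, and the p-values therefore speak only of the variation among these 10 libraries.

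4T1 is a transplantable mouse mammary carcinoma line of epithelial origin. Epithelial cells keep keratin filaments and adhesion molecules such as Epcam. T cells recognise antigen through a receptor made of variable chains and the invariant CD3 subunits, with CD8 as the co-receptor of cytotoxic cells, and they pass the signal on through the kinases Lck and Zap70. A 4T1 tumour also holds neutrophils, macrophages, fibroblasts and vessels, and a sorted fraction can carry RNA of any of them. In bulk RNA, fewer cells of a type and less RNA per cell cannot be told apart.

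Counts assigned to genes ran from 2347983 to 4676469 per 4T1 CTRL library and from 2599226 to 3908523 per CD8 CTRL library, with 15540 to 18972 and 15775 to 17169 genes detected. Levels are given as CPM, each count scaled to a common library total, so they compare libraries for a gene and not genes with each other. Fold changes are log2 values, 4T1 CTRL minus CD8 CTRL, each with a standard error (SE), from the quasi-likelihood test of edgeR with Benjamini-Hochberg adjustment over all genes tested. The 4T1 CTRL libraries were unlike each other. Libraries 1 and 3 resembled each other (mean chi-square per gene 5.19) more than any other 4T1 CTRL pair (next 24.9). They were also closer than every CD8 CTRL pair (lowest 7.47, libraries 23 and 24). Whether libraries 1 and 3 came from the same specimen was not tested, and every spread, SE and p-value counts them as separate libraries. Haemoglobin transcripts took 2.49% and 2.66% of counts in libraries 1 and 3. The range was 0.0181% to 0.149% in libraries 2, 4 and 5 and 0.0231% to 0.0562% in CD8 CTRL. Libraries 1 and 3 also held most of the T cell and B cell counts of the 4T1 CTRL group. Library 5 stood highest in matrix genes, library 4 in macrophage genes and library 2 in keratins. Where leaving out one of them, or libraries 1 and 3 together, changed a call or moved a list median by more than 1.5-fold, that value is given as well.

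Markers set the populations apart in the direction of their labels. Krt8, a keratin of simple epithelia (GRCm38 chr15:101996698-102004482), had 59.2, 183, 69.0, 78.8 and 58.2 CPM in 4T1 CTRL libraries 1 to 5, against 20.7, 8.20, 11.4, 10.8 and 24.3 CPM in CD8 CTRL libraries 21 to 25. Library 2 was the highest and the groups did not overlap. Epcam, an epithelial adhesion molecule (chr17:87635979-87651129), had 15.4, 45.6, 8.51, 20.6 and 23.2 CPM in 4T1 CTRL, against 4.35, 2.83, 6.29, 3.46 and 5.01 CPM in CD8 CTRL. Again library 2 was highest, and library 3 lay just above the highest CD8 library. Cd8a, the alpha chain of the CD8 co-receptor (chr6:71373427-71379173), had 3.42 and 5.15 CPM in 4T1 CTRL libraries 1 and 3 and 0 counts in libraries 2, 4 and 5, against 445, 357, 494, 619 and 395 CPM in CD8 CTRL. Cd3e, an invariant subunit of the T cell receptor (chr9:44998740-45009627), had 22.7, 7.24, 19.3, 2.51 and 13.2 CPM in 4T1 CTRL, against 376, 409, 439.9, 456 and 363 CPM in CD8 CTRL. Cd3e was thus detected at a low level in every 4T1 CTRL library and Cd8a only in libraries 1 and 3. For both genes the lowest CD8 library stood above each 4T1 CTRL library.

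The pan-leukocyte phosphatase Ptprc (CD45) and the neutrophil alarmin S100a8 were measured beside them. Ptprc, which tumour epithelium lacks, stood at 522 ± 199.6 CPM in 4T1 CTRL, against 1801 ± 169 CPM in CD8 CTRL (SD, n = 5 each), and ranged from 253 CPM in library 5 to 706 CPM in library 1. Transcripts of this leukocyte gene were thus present in each 4T1 CTRL library, and all of those libraries lay below CD8 CTRL (1636 to 2073 CPM). S100a8 (chr3:90668978-90670035) had 5846, 4606, 6076, 2734 and 1572 CPM in 4T1 CTRL, against 136, 123, 216, 197 and 209 CPM in CD8 CTRL. On log2(CPM + 1), each of the 6 markers separated the groups by an exact permutation test (both sides), with p = 0.00794, the smallest that 5 against 5 libraries allow, and an adjusted p of 0.00794 over the 6. CD8 CTRL was taken as the T cell reference with its low Krt8 and Epcam known, and Cd3e and Cd8a define CD8 T cells. For these markers the p-values therefore describe the libraries and are no independent check of the labels. By edgeR, Krt8 was higher by 2.57 (SE 0.39, adjusted p = 0.000358), Epcam by 2.35 (SE 0.45, adjusted p = 0.00156) and S100a8 by 4.62 (SE 0.40, adjusted p = 1.87e-05). Cd8a changed by -7.78 (SE 0.79, adjusted p = 3.66e-05), Cd3e by -4.87 (SE 0.49, adjusted p = 3.4e-05) and Ptprc by -1.74 (SE 0.27, adjusted p = 0.000415). The Cd8a value rests on library 3 in part, and was -8.65 without it.

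**Figure D1:**
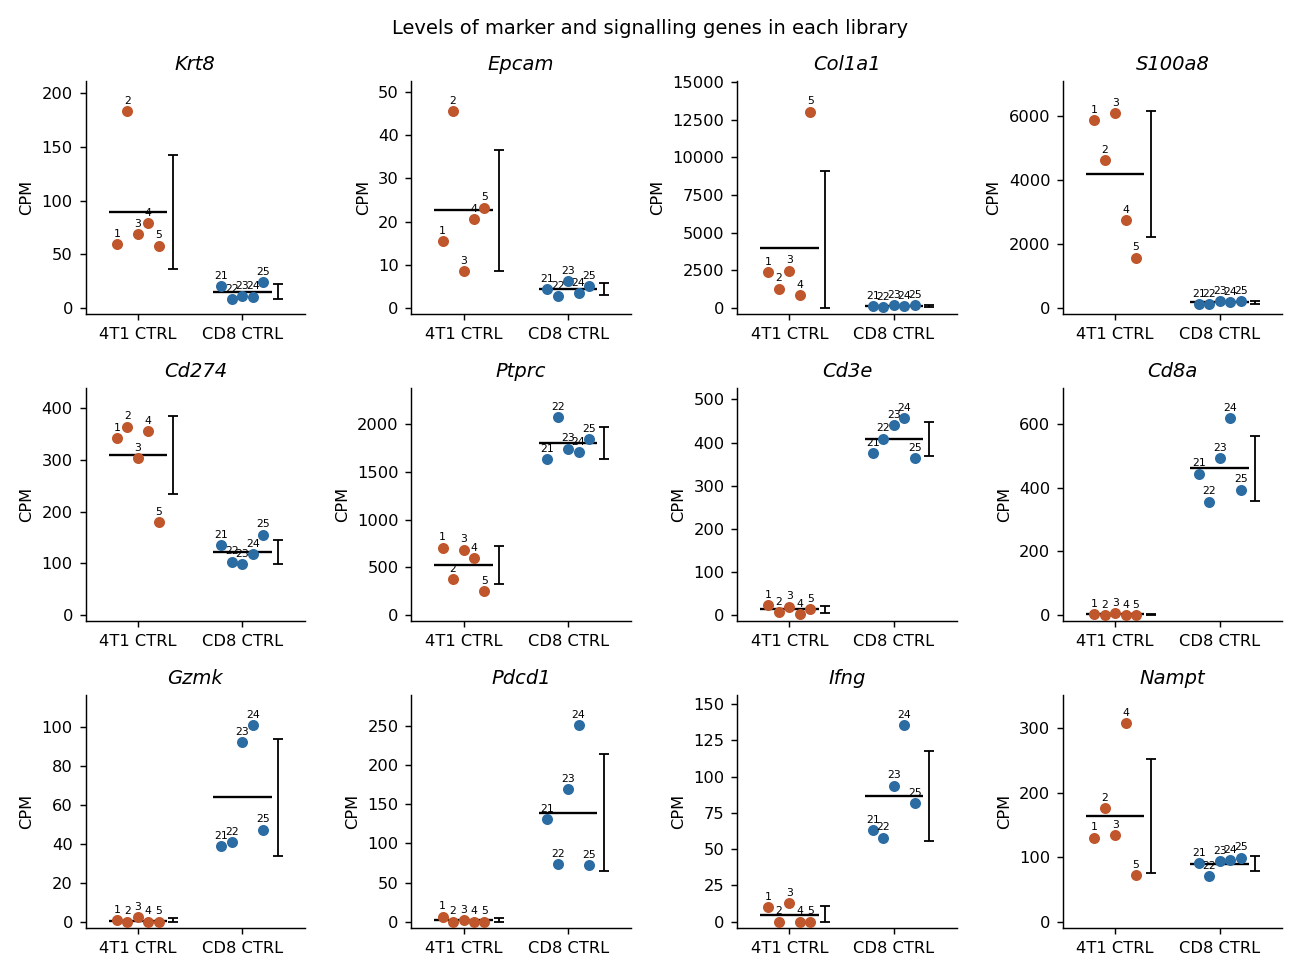
Level of 12 genes in CPM in each 4T1 CTRL library (left of each panel, orange) and each CD8 CTRL library (right, blue), with library numbers, the mean as a line and ± 1 SD (n = 5) as a bar that is drawn no lower than 0. The 5 CD8 CTRL libraries lie above all 4T1 CTRL libraries for Ptprc, Cd3e, Cd8a, Gzmk, Pdcd1 and Ifng and below them for Krt8, Epcam, Col1a1, S100a8 and Cd274, while the groups overlap for Nampt.

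The sequences just upstream of 4 genes are shown because each belongs to a group of members described in the results: keratins, collagens, neutrophil genes and the T cell co-receptors. Each is the 250 bases before the RefSeq start on GRCm38.p6, printed 5′ to 3′ on the gene's strand. For Krt8 (chr15:102004343-102004592, minus strand) and S100a8 (chr3:90668821-90669070, plus strand) the gene spans in the deposited tables reach into the window, and for Col3a1 (chr1:45311288-45311537, plus strand) and Cd8a (chr6:71373177-71373426, plus strand) they begin at its end. Capitals mark matches to 4 motifs, each searched on both strands. The AP-1 motif was spelled TGACTCA. The RUNX motif was spelled TGTGGT. The E-box of the kind bound by Snail factors was spelled CAGGTG. The TATA motif was spelled TATAAA, and no match overlapped another.
Krt8: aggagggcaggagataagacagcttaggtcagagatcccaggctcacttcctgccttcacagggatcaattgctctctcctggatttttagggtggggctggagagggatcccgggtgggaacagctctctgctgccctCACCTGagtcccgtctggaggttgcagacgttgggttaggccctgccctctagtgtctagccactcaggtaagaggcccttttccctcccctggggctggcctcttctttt
Col3a1: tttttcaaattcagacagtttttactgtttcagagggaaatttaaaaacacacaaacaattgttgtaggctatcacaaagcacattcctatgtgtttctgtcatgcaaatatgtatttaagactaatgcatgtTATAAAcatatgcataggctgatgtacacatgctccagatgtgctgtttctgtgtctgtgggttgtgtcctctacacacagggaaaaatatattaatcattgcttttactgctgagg
S100a8: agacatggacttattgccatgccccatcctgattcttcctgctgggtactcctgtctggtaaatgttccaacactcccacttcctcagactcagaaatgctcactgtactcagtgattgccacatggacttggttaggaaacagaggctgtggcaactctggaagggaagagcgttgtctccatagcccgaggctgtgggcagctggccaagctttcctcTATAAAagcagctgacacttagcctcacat
Cd8a: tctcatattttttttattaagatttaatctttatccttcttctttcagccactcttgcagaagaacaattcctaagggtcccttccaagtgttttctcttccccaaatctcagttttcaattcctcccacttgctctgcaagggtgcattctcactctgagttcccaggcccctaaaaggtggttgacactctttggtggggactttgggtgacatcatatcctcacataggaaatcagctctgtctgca
The Krt8 window holds an E-box on the opposite strand, 111 to 106 bases upstream. The S100a8 window holds TATAAA 30 to 25 bases upstream and the Col3a1 window holds it 117 to 112 bases upstream. The Cd8a window holds none of the 4 motifs. Among 32851 mouse promoters of the same length, 17.2% hold the E-box, 12.4% TATAAA, 14% the RUNX letters and 4.46% the AP-1 letters.

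Over the transcriptome, 12025 genes were tested and 4217 passed (35.1%), of which 2418 were higher in 4T1 CTRL (20.1%) and 1799 lower (15%). The median log2 fold change of all genes tested was -0.01. Past a fold of 2, tested by glmTreat, 1169 genes were higher (9.72%) and 399 lower (3.32%), 13% in all. With libraries 1 and 3 left out, which leaves 3 libraries against 5, the counts past 2-fold were 1305 higher and 858 lower. The groups did not overlap for 1712 genes that lay higher in 4T1 CTRL (14.2%) and 1799 that lay lower (15%), 29.2% in all. A gene that passes the filter on low counts only through the group in which it is high had to differ, so counts over the tested members of a list are descriptions.

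**Figure D2:**
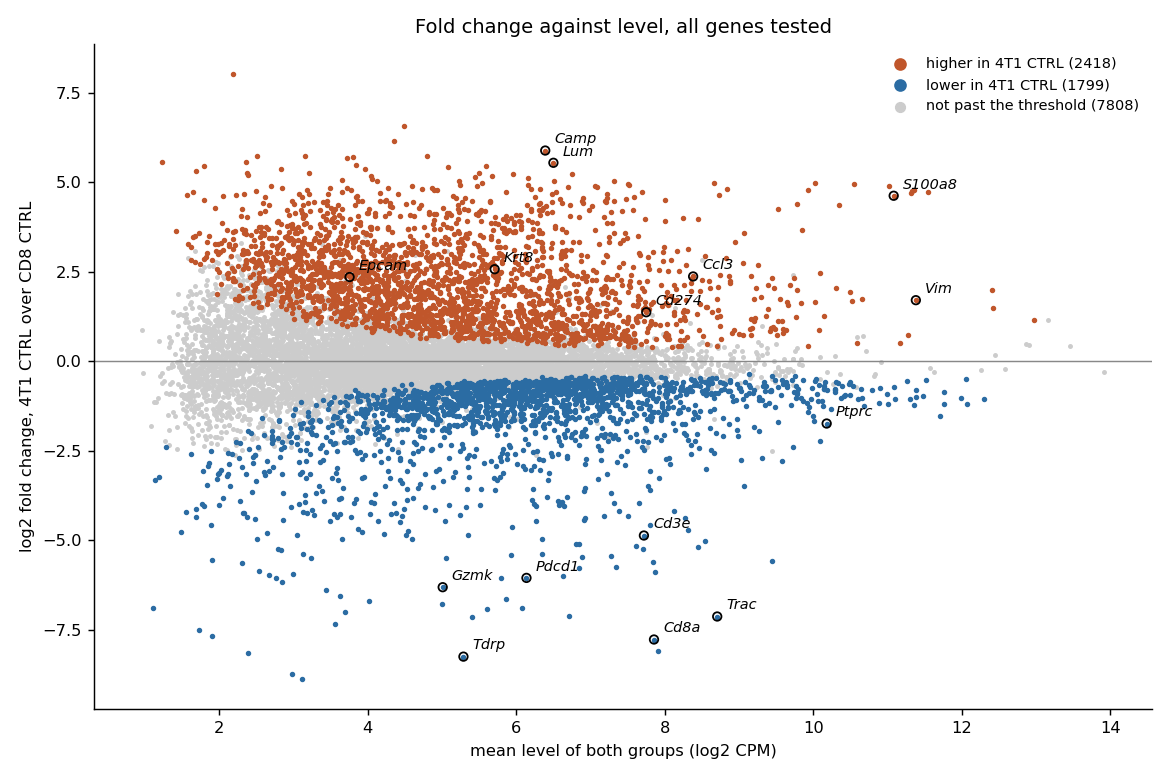
Log2 fold change of 4T1 CTRL over CD8 CTRL (vertical) against the mean level of both groups in log2 CPM (horizontal) for the 12025 genes tested. Orange points passed higher in 4T1 CTRL (2418), blue points passed lower (1799) and grey points did not pass; of the circled genes, Tdrp, Cd8a and Trac lie lowest and Camp and Lum highest.

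Among genes with at least 50 CPM on average in the higher group and no overlap, the 10 largest increases past 2-fold were headed by Camp, the cathelicidin of neutrophil granules. It had 276, 152, 272, 65.5 and 60.3 CPM in 4T1 CTRL, against 3.07, 1.41, 4.49, 3.46 and 2.15 CPM in CD8 CTRL (log2 fold change 5.88, SE 0.57, adjusted p = 3.07e-05). Its lowest 4T1 CTRL library was far above its highest CD8 library, and without libraries 1 and 3 the value was 4.92. Stfa2, a cysteine protease inhibitor of the stefin A cluster whose members are nearly identical and may share reads, had a mean of 84.4 ± 37.9 CPM in 4T1 CTRL, against 2.53 ± 2.44 CPM in CD8 CTRL (5.14, and 4.54 without libraries 1 and 3). The other 8 encode matrix or secreted proteins, apart from the globin-like Cygb. Lum, a collagen-binding proteoglycan, had 118, 86.0, 129, 43.6 and 509.8 CPM in 4T1 CTRL, against 3.58, 1.41, 7.78, 1.92 and 5.01 CPM in CD8 CTRL (5.54, SE 0.74, adjusted p = 0.000166). Library 5 was the highest for Lum and for each of the 7 genes named next. Podn changed by 5.72, Sfrp4 by 5.44, Cpxm1 by 5.23, Cygb by 5.22, Eln (elastin) by 5.18, Serpinf1 by 5.11 and Lamb2 (a laminin chain) by 5.05. Without library 5 these 7 stood at 4.16, 4.33, 4.45, 4.31, 4.08, 3.96 and 4.32, Lum stood at 4.62, and all 8 still passed.

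By the same criteria, the 10 largest decreases were headed by Tdrp, and 6 of them, Cd8a included, are genes known from T cells. Cd8b1, the beta chain of CD8, had 2.57, 2.98 and 2.69 CPM in 4T1 CTRL libraries 1 to 3 and 0 counts in libraries 4 and 5, against 412 to 576 CPM in CD8 CTRL (log2 fold change -8.09, SE 0.62, adjusted p = 1.15e-05). Trac, the constant region of the receptor alpha chain, had 9.41, 4.68 and 12.5 CPM in libraries 1 to 3 and 0 counts in libraries 4 and 5, against 776, 842.5, 937, 836 and 764 CPM in CD8 CTRL (-7.14, and -7.74 without library 3). Cd6 changed by -7.12 and Cd5 by -6.91 (-8.69 without library 3); both are surface receptors that tune T cell activation. Gzmf, a granzyme of a cluster of similar genes, had a mean of 0.611 ± 0.847 CPM in 4T1 CTRL, against 97.2 ± 61.9 CPM in CD8 CTRL (-6.92, and -7.67 without library 1). The remaining 4 named here are in none of the T cell gene lists used here. Tdrp had 0.855 CPM in 4T1 CTRL library 1 and 0 counts in the other libraries of that group, against 53.9 to 110.3 CPM in CD8 CTRL (-8.26, adjusted p = 1.15e-05). Slc17a6, a glutamate transporter of synaptic vesicles, had 2.24 CPM in library 3 and 0 counts in the others, against 36.8 to 158.5 CPM in CD8 CTRL (-7.16). Nsg2 changed by -6.79 (-7.98 without library 3, a fitted value that rests on 3 counts) and Nrn1, a neuritin, by -6.63 (-7.40 without library 4). Without library 1 for Tdrp and without library 3 for Slc17a6, the 4T1 CTRL group is at 0 counts, so no fold change without them is given.

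Of the 16 genes of the T cell receptor complex and its co-receptors, all were tested, 15 were lower in 4T1 CTRL and 0 higher. The groups did not overlap for 14 of them, against 29.2% of all genes tested. The weakest call was that of the co-receptor Cd4 (-2.85, adjusted p = 0.0436). It was lost when any single library other than 3 was left out (largest adjusted p 0.112). The median log2 fold change of the 16 was -5.16, against -0.01 over all genes. The summed level of the list was 525.6, 115, 534, 61.0 and 434 CPM in 4T1 CTRL libraries 1 to 5, against 6187 to 7445 CPM in CD8 CTRL. In library 5 most of that sum was Thy1, a surface protein that fibroblasts also carry, at 394 CPM, which was the one member of the 15 whose groups overlapped (171 ± 137 CPM in 4T1 CTRL, against 531 ± 127 CPM in CD8 CTRL, -1.55, adjusted p = 0.0223, and 0.0517 without libraries 1 and 3). Cd3d, a further CD3 subunit, had 38.7, 12.4, 32.9, 0.753 and 0 CPM in 4T1 CTRL, against 584 to 877 CPM in CD8 CTRL (-5.20, adjusted p = 0.000967). Cd247, the signalling zeta chain, had a mean of 5.73 ± 6.95 CPM in 4T1 CTRL, against 224 ± 26.3 CPM in CD8 CTRL (-5.11, and -5.73 without library 3). Leaving out libraries 1 and 3, Cd3e stood at -5.78, Cd3d at -7.50, Cd247 at -8.59 and Lck at -5.35, while Cd8a, Gzmf, Gzmk, Klrc2, Pdcd1 and Ifng were at 0 counts in libraries 2, 4 and 5. The exception was Trdc, the constant region of the delta chain of gamma-delta T cells, with 63.9, 4.68, 70.1, 0 and 2.08 CPM in 4T1 CTRL, against 7.68, 7.92, 2.40, 1.15 and 6.44 CPM in CD8 CTRL (2.56, SE 1.14, adjusted p = 0.0979). Libraries 1 and 3 exceeded every CD8 library for Trdc and the other 3 did not, that gene did not pass, and without libraries 1 and 3 its value was -1.27 (adjusted p = 0.409). Without libraries 1 and 3, 14 of the 16 were lower and the median was -8.12, with 2 members at 0 counts in libraries 2, 4 and 5.

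Downstream of the receptor, 15 of 16 genes of proximal signalling were lower and 0 higher (median -4.61, and -6.23 without libraries 1 and 3). Themis, a T cell signalling adaptor, had 7.70, 0, 1.57, 1.76 and 6.23 CPM in 4T1 CTRL, against 157, 161, 164, 152 and 159.9 CPM in CD8 CTRL, where it varied little (-5.40, SE 0.57, adjusted p = 4.59e-05, and -6.02 without library 1). Lck, the kinase that phosphorylates the CD3 tails, had 47.3, 31.1, 39.9, 4.77 and 10.7 CPM in 4T1 CTRL, against 469 to 664 CPM in CD8 CTRL (-4.39, adjusted p = 9.45e-05). Rasgrp1, which couples the receptor to Ras, kept a higher share of its CD8 level, at 16.1 ± 4.62 CPM in 4T1 CTRL, against 102 ± 18.9 CPM in CD8 CTRL (-2.60, adjusted p = 3.85e-05).

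Transcription factors of the T lineage were more divided, with 10 of 14 tested genes lower and 2 higher (median -1.95, and -4.01 without libraries 1 and 3). Bcl11b, required for T cell commitment, had 16.5, 0, 14.8, 1.76 and 1.04 CPM in 4T1 CTRL, against 401 to 560.5 CPM in CD8 CTRL (-5.90, SE 0.80, adjusted p = 0.000187, and -6.50 without library 1). Runx3, which programmes CD8 cells, was also well expressed in the 4T1 fraction, at 167 ± 71.5 CPM, against 617 ± 47.3 CPM in CD8 CTRL (-1.87, adjusted p = 0.000211). The 2 that rose are not restricted to T cells: Runx1, a factor of blood and epithelial cells, by 1.32 (adjusted p = 0.000219) and Id3, an inhibitor of helix-loop-helix factors, by 1.27 (adjusted p = 0.00288). Gata3, which serves both T cells and the luminal mammary epithelium, was at 55.8 ± 3.82 CPM in 4T1 CTRL, against 83.0 ± 14.6 CPM in CD8 CTRL (-0.53, adjusted p = 0.0259). The Gata3 call was lost without library 3, 4, 24 or 25 (largest adjusted p 0.0643).

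Of 12 genes of naive and memory T cells, 9 were lower and 1 higher (median -2.20, and -4.03 without libraries 1 and 3). Dapl1 had 3.42, 11.5, 1.34, 2.51 and 3.12 CPM in 4T1 CTRL, against 155 to 295.5 CPM in CD8 CTRL (-5.77, SE 0.46, adjusted p = 1.44e-05, and -6.39 without library 2). The interleukin receptor gene Il7r was still at 49.95 to 175 CPM in 4T1 CTRL, against 354 to 510.1 CPM in CD8 CTRL (-1.93, adjusted p = 0.000308). Igfbp4, the member that rose, encodes a binding protein for insulin-like growth factors that many stromal cells secrete, and stood at 966 ± 217 CPM in 4T1 CTRL, against 238 ± 52.0 CPM in CD8 CTRL (2.05, adjusted p = 3.75e-05).

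The effector list split by gene. Of 16 cytotoxic granule and effector genes, 9 were lower, 3 higher and 4 did not pass. The lower ones include granule proteases and the cytokine gene Ifng. Gzmk had 0.642 and 2.46 CPM in 4T1 CTRL libraries 1 and 3 and 0 counts in the others, against 38.6, 40.7, 91.9, 100.8 and 47.2 CPM in CD8 CTRL (-6.32, SE 0.74, adjusted p = 7.57e-05, and -7.96 without library 3, where 3 counts remain in the group). Gzmm had a mean of 1.24 ± 1.18 CPM in 4T1 CTRL, against 65.2 ± 25.4 CPM in CD8 CTRL (-5.49, adjusted p = 5.22e-05). Ifng, which encodes interferon gamma, had 9.84 and 12.99 CPM in libraries 1 and 3 and 0 counts in libraries 2, 4 and 5, against 63.2, 58.0, 93.7, 135 and 81.5 CPM in CD8 CTRL (-4.02, SE 0.92, adjusted p = 0.00488, and -4.81 without library 3). The higher ones were cytokines that myeloid cells make as well. Ccl3, a chemokine of activated leukocytes, had 445, 891, 477, 505 and 473 CPM in 4T1 CTRL, against 96.7, 103, 78.2, 118 and 153 CPM in CD8 CTRL (2.37, SE 0.23, adjusted p = 3.21e-05). Tnf was at 205 ± 95.5 CPM in 4T1 CTRL, against 112 ± 23.5 CPM in CD8 CTRL, with overlapping groups (0.87, adjusted p = 0.0208), and its call was lost without library 23 or 24 (0.76 and 0.80). Ccl4 was higher by 0.98 (adjusted p = 0.0428), a call lost without library 2, 4, 21, 22, 23 or 24 (0.52 without library 2, largest adjusted p 0.117).

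Among the 4 effector genes that did not pass were Xcl1 and Gzma. Xcl1, a chemokine of activated CD8 and NK cells, had 154 and 162 CPM in 4T1 CTRL libraries 1 and 3, 0.753 CPM in library 4 and 0 counts in libraries 2 and 5, against 137.5 to 199.6 CPM in CD8 CTRL (-1.28, adjusted p = 0.429). Gzma had 89.2 and 113 CPM in libraries 1 and 3 and 0 to 1.25 CPM in the others, against 23.5 to 154 CPM in CD8 CTRL (-1.15, adjusted p = 0.467). In these 2 genes libraries 1 and 3 lay within the CD8 range, while their Cd8a was at most 5.15 CPM. The median of the list was -3.03, and -7.28 without libraries 1 and 3, with members at or under 3 counts over libraries 2, 4 and 5 set to that floor. Of 8 tested killer lectin and NK receptor genes 6 were lower and 0 higher (median -3.56). Leaving out libraries 1 and 3 gave 7 lower and a median of -9.03, or -6.20 with the 5 members at or under 3 counts set to that floor. Klrk1, the activating receptor NKG2D, had 6.58 CPM in library 5 and 28.4 to 34.9 CPM in the other 4T1 CTRL libraries, against 113 to 256 CPM in CD8 CTRL (-2.60, adjusted p = 0.000232). Klrc2, near-identical to its neighbour Klrc1 in parts, had a mean of 0.621 ± 1.07 CPM in 4T1 CTRL, against 24.6 ± 4.70 CPM in CD8 CTRL (-4.98, and -6.63 without library 3, again on 3 counts).

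Of 11 tested checkpoint receptors and exhaustion genes 7 were lower and 0 higher (median -1.52, and -2.42 without libraries 1 and 3). Pdcd1, which encodes the inhibitory receptor PD-1, had 6.63 and 1.79 CPM in 4T1 CTRL libraries 1 and 3 and 0 counts in the others, against 131, 73.3, 169, 251 and 72.2 CPM in CD8 CTRL (-6.06, SE 0.85, adjusted p = 0.000213, and -7.82 without library 1). Ctla4 had a mean of 2.59 ± 3.26 CPM in 4T1 CTRL, against 196 ± 38.9 CPM in CD8 CTRL (-6.00, adjusted p = 7.23e-05, and -6.87 without library 3). Of 9 tested ligands 5 were higher and 0 lower (median 1.11). Among the 4 that did not pass, Pdcd1lg2, the other PD-1 ligand, stood at -0.61, Vsir at -0.47 and Pvr at -0.17. Cd274, which encodes the PD-1 ligand PD-L1, had 342, 365, 303.5, 356 and 179.7 CPM in 4T1 CTRL, against 135, 103, 98.2, 118 and 155 CPM in CD8 CTRL (1.37, SE 0.21, adjusted p = 0.000399). Library 5 was its lowest 4T1 CTRL library and still lay above all of CD8 CTRL, and in a fit of all 30 libraries the value was 1.33 and did not pass (adjusted p = 0.0647). Nectin2, a ligand of the TIGIT family of receptors, had a mean of 17.9 ± 7.79 CPM in 4T1 CTRL, against 4.74 ± 2.42 CPM in CD8 CTRL (1.89, adjusted p = 0.00771). The 4T1 fraction also held transcripts of genes known as neutrophil and macrophage markers, and which cells supplied the Cd274 transcripts was not tested.

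**Figure D3:**
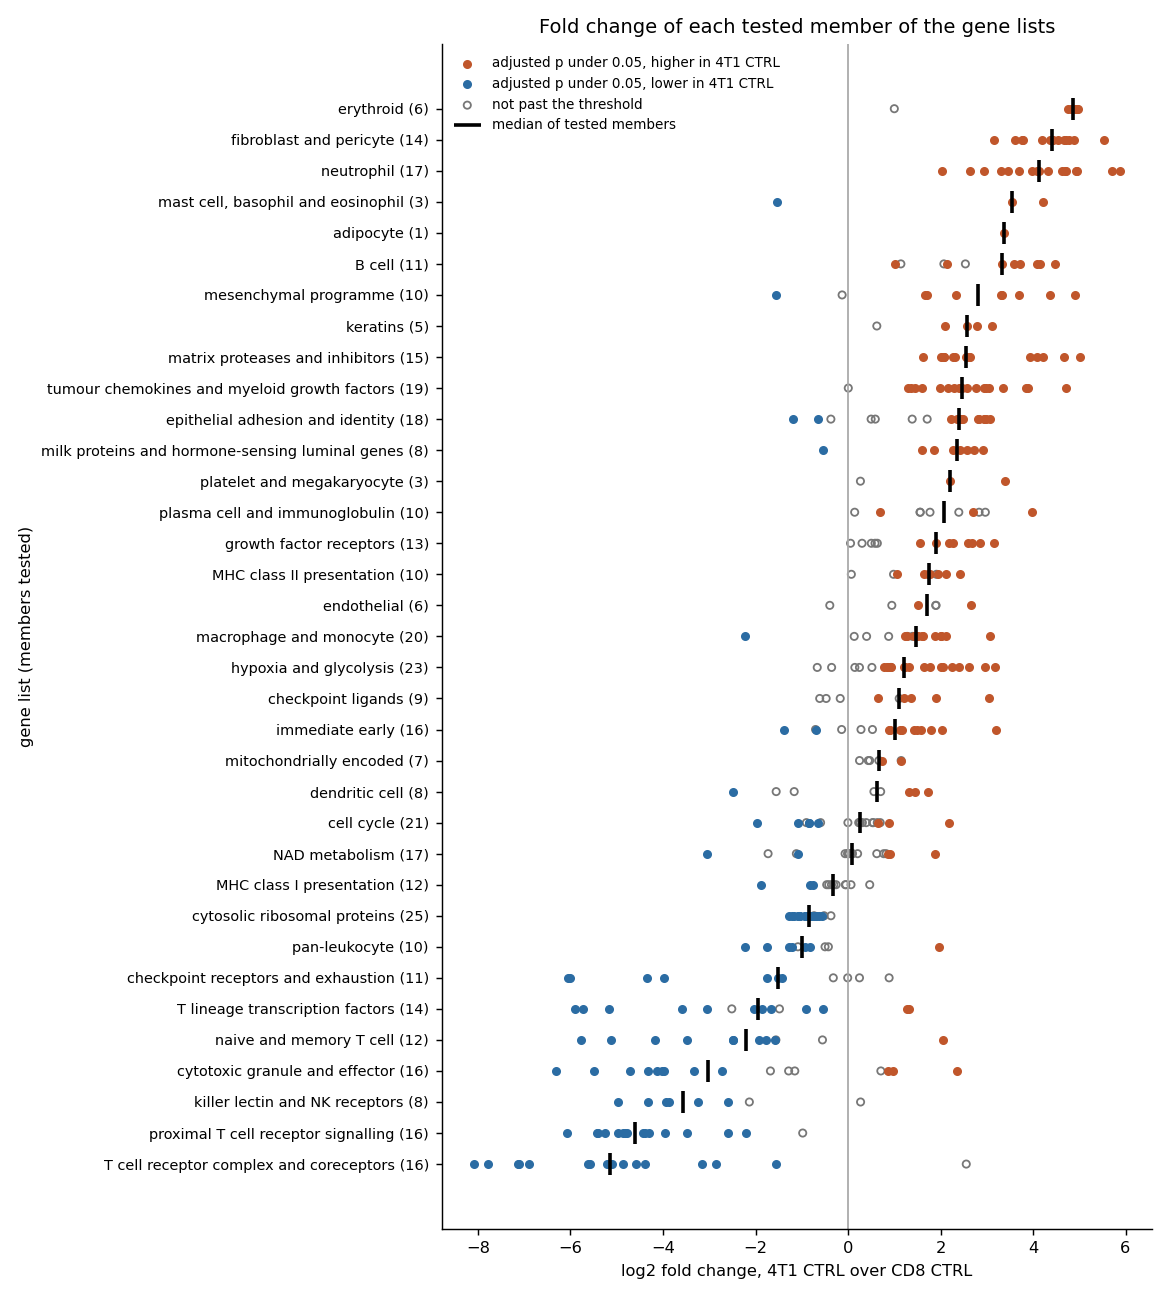
Log2 fold change of 4T1 CTRL over CD8 CTRL (horizontal) for every tested member of each gene list (rows, number tested in brackets), with the median as a black bar. Orange members passed higher in 4T1 CTRL, blue members passed lower and open members did not pass. Lists run from T cell receptor genes at the bottom, with a median of -5.16, to fibroblast, neutrophil and erythroid genes at the top.

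On the epithelial side, 4 of 5 tested keratins were higher in 4T1 CTRL and 0 lower (median 2.57), and 6 of the 11 listed were too low to test, among them the basal keratins Krt5 and Krt14. The summed keratin level was 217 to 523 CPM in 4T1 CTRL, against 18.4 to 91.2 CPM in CD8 CTRL. Krt18, the partner of Krt8 in the filament, had 125, 277, 106, 111 and 108 CPM in 4T1 CTRL, against 15.1, 7.64, 12.6, 11.2 and 37.9 CPM in CD8 CTRL (3.12, SE 0.43, adjusted p = 0.000211). Library 2 stood apart above the other 4T1 CTRL libraries. Of 18 tested genes of epithelial adhesion and identity, 11 were higher and 2 lower (median 2.40), and 14 of the 32 listed were too low to test. Lama5, a laminin chain of basement membranes, had a mean of 112 ± 28.9 CPM in 4T1 CTRL, against 14.8 ± 5.74 CPM in CD8 CTRL (2.94, adjusted p = 2.6e-05), and Tjp1, a tight junction scaffold, 38.6 ± 14.8 CPM in 4T1 CTRL, against 7.17 ± 2.31 CPM in CD8 CTRL (2.44, adjusted p = 0.000137). The 2 lower members were the plakophilin Pkp3 (-1.19, adjusted p = 0.018) and the integrin Itga6 (-0.64, adjusted p = 0.0222), whose call was lost without library 3, 21 or 22 (largest adjusted p 0.0668) or without libraries 1 and 3 (0.0834). Cdh1, the E-cadherin of epithelial junctions, was at 19.3 ± 8.53 CPM in 4T1 CTRL, against 25.3 ± 7.06 CPM in CD8 CTRL, and did not pass (-0.37, adjusted p = 0.402).

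Most tested mesenchymal and mammary genes were higher as well. Of 10 tested genes of the mesenchymal programme 8 were higher and 1, Zeb1, lower (median 2.82, and 2.22 without library 5). Zeb1 stood at -1.56 (adjusted p = 0.0179), and S100a4 did not pass (-0.13, adjusted p = 0.725). Vim, the intermediate filament of mesenchymal cells and leukocytes, had 3493, 4874, 3993, 3894 and 4077 CPM in 4T1 CTRL, against 1360.1, 966.7, 1090.2, 1379 and 1583 CPM in CD8 CTRL (1.70, SE 0.17, adjusted p = 3.09e-05). Snai1, a transcription factor of the epithelial to mesenchymal transition, had a mean of 55.3 ± 12.6 CPM in 4T1 CTRL, against 11.2 ± 2.94 CPM in CD8 CTRL (2.33, adjusted p = 5.13e-05). Of 8 tested milk protein and luminal genes 7 were higher and 1, Gata3, lower (median 2.35). Csn1s1, a milk casein, had 28.9, 126, 33.4, 33.1 and 97.0 CPM in 4T1 CTRL, against 5.88, 2.26, 21.9, 12.7 and 5.72 CPM in CD8 CTRL (2.73, adjusted p = 0.00352). Areg, a ligand of the epidermal growth factor receptor, was higher by 1.59 (adjusted p = 0.000601). Of 13 tested growth factor receptors 8 were higher and 0 lower (median 1.90). Igf1r, the receptor of insulin-like growth factor, had a mean of 197 ± 23.9 CPM in 4T1 CTRL, against 53.6 ± 11.1 CPM in CD8 CTRL (1.89, adjusted p = 3.01e-05), and the receptor kinase Axl 379 ± 195 CPM in 4T1 CTRL, against 60.3 ± 19.5 CPM in CD8 CTRL (2.68, adjusted p = 0.000151).

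Genes known as markers of fibroblasts, vessels and leukocytes were measured in the sorted fraction, and whether 4T1 cells or other cells supplied their transcripts was not tested. Of the 16 listed fibroblast and pericyte genes 14 were tested, and 14 were higher (median 4.42, and 3.48 without library 5). Their summed level was 10956, 6315, 11626, 3563 and 57060.0 CPM in 4T1 CTRL libraries 1 to 5, against 358 to 963 CPM in CD8 CTRL, so library 5 held several times as much as any other. Col1a1, the chain of type I collagen, had 2377, 1296, 2489, 859 and 13039 CPM in 4T1 CTRL, against 113, 88.6, 183, 148 and 185 CPM in CD8 CTRL (4.88, SE 0.73, adjusted p = 0.000334, and 3.68 without library 5). Col3a1 had 931 to 18479 CPM in 4T1 CTRL, against 128 to 310.2 CPM in CD8 CTRL (4.72, and 3.56 without library 5). Pdgfra, the receptor that marks fibroblasts, had 83.2, 92.8, 86.5, 78.0 and 184.9 CPM in 4T1 CTRL, against 5.09 to 13.2 CPM in CD8 CTRL (3.60, SE 0.34, adjusted p = 2.65e-05, and 3.28 without library 5). Col6a1 was higher by 4.20 (adjusted p = 0.000144, and 3.55 without library 5). Of 6 tested endothelial genes 2 were higher and 0 lower (median 1.70, and 2.35 without libraries 1 and 3), and 6 of the 12 listed were too low to test. The share that passed was near the 35.1% of all genes tested. Eng passed (2.65, adjusted p = 0.000167), and so did Flt1 (adjusted p = 0.0261). The Flt1 call was lost without library 2, 21 or 24 (largest adjusted p 0.0634) or without libraries 1 and 3 (0.0551). The 4 that did not pass were Pecam1 at -0.394, Cdh5 at 0.947, Egfl7 at 1.896 and Kdr at 1.904. Without libraries 1 and 3 Kdr passed (adjusted p = 0.0334). Fabp4 was the 1 of 8 listed adipocyte genes that could be tested (3.38, adjusted p = 0.00205, and 4.05 without CD8 CTRL library 25).

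Neutrophil genes were higher throughout those tested. Of 20 listed 17 were tested, and 17 were higher (median 4.13, and 3.74 without libraries 1 and 3), with 16 not overlapping (29.2% over all genes tested). Their sum was 6093 to 18444 CPM in 4T1 CTRL, against 772 to 1570 CPM in CD8 CTRL. S100a9, the partner of S100a8, had 6685, 5505, 6787, 3574 and 2038 CPM in 4T1 CTRL, against 118 to 269.3 CPM in CD8 CTRL (4.69, adjusted p = 1.85e-05). Mmp8, neutrophil collagenase, had 77.6, 181, 97.4, 77.8 and 98.7 CPM in 4T1 CTRL, against 5.12 to 9.23 CPM in CD8 CTRL (3.97, SE 0.29, adjusted p = 1.15e-05). Mmp9, the gelatinase of neutrophils and macrophages, had a mean of 287 ± 54.6 CPM in 4T1 CTRL, against 47.0 ± 13.6 CPM in CD8 CTRL (2.64, adjusted p = 1.15e-05). Libraries 1 and 3 were highest and library 5 lowest for S100a8 and S100a9, whereas Mmp8 was highest in library 2.

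Of 20 macrophage and monocyte genes 13 were higher and 1 lower (median 1.47, and 1.93 without libraries 1 and 3). The summed level was 3945, 9708, 3908, 14560.0 and 5640.2 CPM in 4T1 CTRL libraries 1 to 5, against 2142 to 4356 CPM in CD8 CTRL, so libraries 1 and 3 overlapped the CD8 range and library 4 stood highest. Itgam, the integrin CD11b, had 125, 148, 114, 272 and 84.8 CPM in 4T1 CTRL, against 26.4 to 55.1 CPM in CD8 CTRL (1.89, adjusted p = 0.000448). Ly6c2, which marks inflammatory monocytes and also memory CD8 cells, was the member that fell, with 40.9 to 151 CPM in 4T1 CTRL, against 462 to 701 CPM in CD8 CTRL (-2.23, adjusted p = 0.000216). Spi1, the myeloid transcription factor PU.1, was the 1 of 10 pan-leukocyte genes that rose, by 1.97 (adjusted p = 0.00039), while 6 of that list fell (median -1.002). Of 8 tested dendritic cell genes 3 were higher and 1, the lymph node homing receptor Ccr7, lower (-2.48, adjusted p = 0.0306). Without libraries 1 and 3 these counts were 1 and 3, the median of 0.63 became -1.05 and Ccr7 stood at -5.15. The Ccr7 call was lost without library 2, 21, 22 or 25 (largest adjusted p 0.0649).

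Hdc, the histamine-making enzyme of mast cells, basophils and neutrophils, had 499, 451, 428.5, 260 and 174 CPM in 4T1 CTRL, against 12.2 to 33.6 CPM in CD8 CTRL (4.21, SE 0.37, adjusted p = 2.02e-05). Cpa3, a mast cell carboxypeptidase, was higher by 3.55 (adjusted p = 0.0038), and by 2.06 (adjusted p = 0.0399) without libraries 1 and 3. Of the 3 tested genes of the mast cell, basophil and eosinophil list 2 were higher and 1 lower (median 3.55, and 2.06 without libraries 1 and 3), and 7 of the 10 listed were too low to test. The lower member was Kit (-1.54, adjusted p = 0.0403, and -2.815 without libraries 1 and 3). The Kit call was lost without library 2, 5, 21, 23, 24 or 25 (largest adjusted p 0.0855). B cell genes followed libraries 1 and 3. Of 11 tested, 8 were higher and 0 lower (median 3.32), but without libraries 1 and 3 the list had 1 higher and 1 lower and a median of 0.66. Ms4a1, the B cell protein CD20, changed sign between those fits (3.72 and -1.32), and so did Cd22 (2.15 and -0.11). Ebf1, a factor of B cells and of stromal progenitors, had 562.2, 71.1, 492, 21.8 and 250.03 CPM in 4T1 CTRL, against 5.77 to 19.3 CPM in CD8 CTRL (4.47, adjusted p = 0.000969, and 3.10 with adjusted p = 0.0026 without libraries 1 and 3). Of 10 tested plasma cell and immunoglobulin genes 3 were higher, a share below the 35.1% of all genes tested. Among the 3 was Sdc1, a proteoglycan of plasma cells and epithelium (2.70, adjusted p = 0.000151). Without libraries 1 and 3 the list median of 2.08 became -0.24. Ighm, the mu heavy chain, stood at 1.56 and did not pass (adjusted p = 0.186), and at -1.59 (adjusted p = 0.00936) without libraries 1 and 3. Erythroid genes showed the same dependence. Hbb-bs, an adult beta globin, had 11507, 744, 12081, 94.3 and 406 CPM in 4T1 CTRL, against 104 to 273 CPM in CD8 CTRL (4.75, SE 1.14, adjusted p = 0.00646), and without libraries 1 and 3 the value was 1.01 (adjusted p = 0.122). Of 6 tested erythroid genes 5 were higher (median 4.86), and leaving out libraries 1 and 3 brought that count to 0 (median 0.79). Of 3 tested platelet genes 2 were higher and 0 lower (median 2.20, 2.84 without libraries 1 and 3 and 1.54 without library 2). The platelet factor Pf4 was higher by 2.20 (adjusted p = 0.0242), with 41.3 and 51.5 CPM in libraries 1 and 3 and 414 to 716 CPM in the others, against 22.9 to 121 CPM in CD8 CTRL. Its call was lost without library 2, 21, 22 or 23 (1.73 without library 2, largest adjusted p 0.067).

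**Figure D4:**
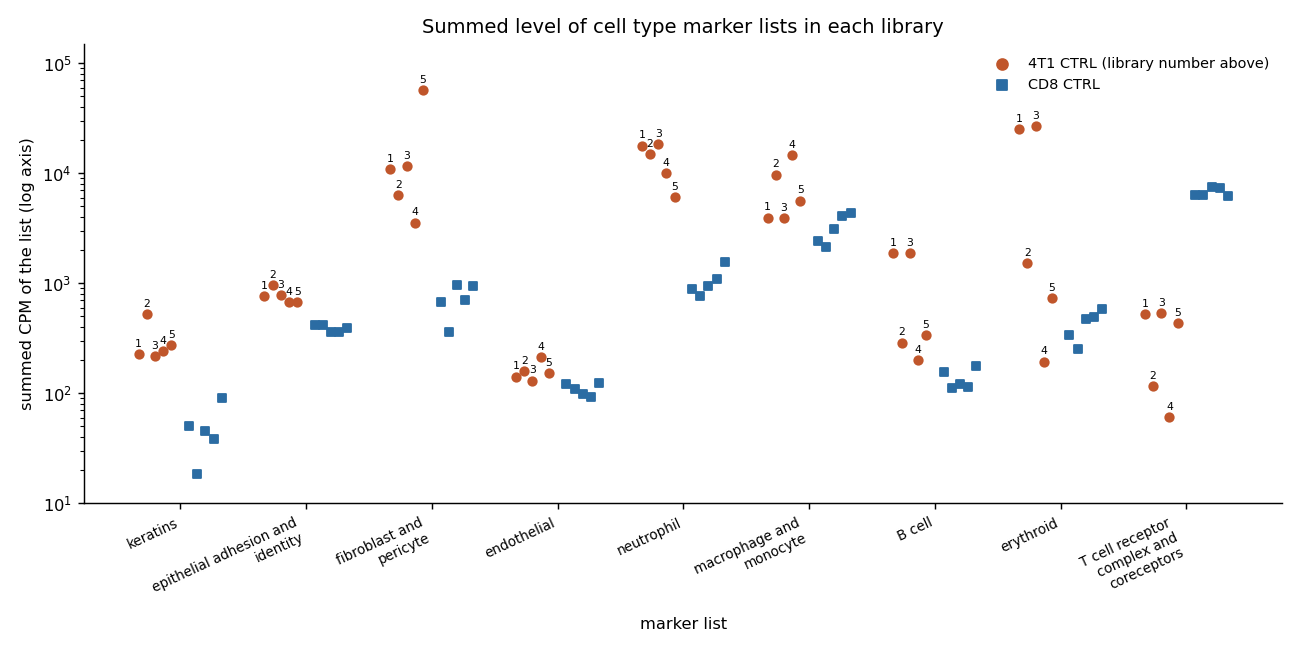
Summed CPM (log axis) of 9 marker lists in each 4T1 CTRL library (orange circles, numbered) and each CD8 CTRL library (blue squares). Libraries 1 and 3 stand highest for B cell and erythroid genes, library 5 for fibroblast genes at 57060.0 CPM and library 4 for macrophage genes at 14560.0 CPM, and the T cell receptor list lies at or below 534 CPM in 4T1 CTRL, against at or above 6187 CPM in CD8 CTRL.

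Secreted factors and matrix proteases were higher in the 4T1 fraction nearly throughout. Of 19 tested chemokines and myeloid growth factors 18 were higher and 0 lower (median 2.46). Csf1, the growth factor of macrophages, had 269.9, 278, 319, 196 and 310.3 CPM in 4T1 CTRL, against 61.4, 40.7, 52.7, 63.9 and 49.7 CPM in CD8 CTRL (2.40, SE 0.21, adjusted p = 2.02e-05). The neutrophil chemokine Cxcl2 had a mean of 8668 ± 2509 CPM in 4T1 CTRL, against 2199 ± 956 CPM in CD8 CTRL (1.99, adjusted p = 0.000242), and the growth factor Csf3 37.5 ± 12.8 CPM in 4T1 CTRL, against 5.52 ± 2.55 CPM in CD8 CTRL (2.77, adjusted p = 0.000197). Cxcl12, a stromal chemokine, followed library 5 (4.72, and 3.59 without it). The exception was Csf2, at 4.39 ± 3.50 CPM in 4T1 CTRL, against 4.64 ± 1.89 CPM in CD8 CTRL (0.01, adjusted p = 0.997). All 15 tested matrix proteases and inhibitors were higher (median 2.54). Mmp14, a membrane-bound collagenase, had 261, 299, 253, 353 and 464 CPM in 4T1 CTRL, against 42.7, 45.8, 46.1, 40.0 and 94.4 CPM in CD8 CTRL (2.62, SE 0.28, adjusted p = 4.93e-05).

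Hypoxia and glycolysis genes were higher in 17 of 23 cases and lower in 0 (median 1.22), with 14 not overlapping (29.2% over all genes tested). Slc16a3, the lactate exporter MCT4, had 179, 187, 175, 213 and 145 CPM in 4T1 CTRL, against 20.98, 28.3, 46.4, 48.9 and 30.4 CPM in CD8 CTRL (2.40, SE 0.23, adjusted p = 2.88e-05). Ndrg1, induced by low oxygen, had a mean of 600.4 ± 208 CPM in 4T1 CTRL, against 127 ± 32.5 CPM in CD8 CTRL (2.26, adjusted p = 5.22e-05), and the glucose transporter Slc2a1 254 ± 50.7 CPM in 4T1 CTRL, against 109.5 ± 10.5 CPM in CD8 CTRL (1.23, adjusted p = 0.000139). Immediate early genes were higher in 10 of 16 cases and lower in 2 (median 1.02), with Ier3 higher by 1.80 (adjusted p = 0.000247), Atf3 by 1.58 (adjusted p = 0.000165) and Fosl2, an AP-1 subunit, lower at -1.38 (adjusted p = 0.000304). These genes respond to handling of cells as well as to signals, and the isolation method and the population cannot be told apart.

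Of 12 class I antigen presentation genes 3 were lower and 0 higher (median -0.33), while 35.1% of all genes tested passed. Nlrc5, the class I transactivator, had 37.2, 33.2, 37.2, 27.3 and 8.66 CPM in 4T1 CTRL, against 98.0 to 117 CPM in CD8 CTRL (-1.89, SE 0.32, adjusted p = 0.000676). H2-K1, a class I heavy chain with close paralogs, had a mean of 742 ± 199 CPM in 4T1 CTRL, against 1279 ± 123 CPM in CD8 CTRL (-0.75, adjusted p = 0.0119), whereas the light chain gene B2m did not pass (-0.26, adjusted p = 0.199). Of 10 class II genes 7 were higher and 0 lower (median 1.75). In libraries 2, 4 and 5 against CD8 CTRL, 5 were higher and 1 lower (median 1.08). Ciita, their transactivator, had 75.3, 35.3, 82.0, 47.2 and 8.31 CPM in 4T1 CTRL, against 5.66 to 18.1 CPM in CD8 CTRL (2.42, adjusted p = 0.00428, and 1.57 with adjusted p = 0.0369 without libraries 1 and 3). Library 5 lay within the CD8 range, and no class II gene separated the groups in full.

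Of 17 tested NAD genes, the pathway of the antibody's target, 3 were higher, 2 lower and 12 did not pass (median 0.09, and -0.04 without libraries 1 and 3). The 5 of 17 that passed are a share below the 35.1% of all genes tested. Nampt, which makes nicotinamide mononucleotide, had 130.4, 176, 134, 308 and 72.4 CPM in 4T1 CTRL, against 90.6, 70.7, 94.3, 95.4 and 99.4 CPM in CD8 CTRL (0.86, SE 0.28, adjusted p = 0.0288). Library 4 was the highest and library 5 lay inside the CD8 range, and leaving out single libraries took the adjusted p as high as 0.0771, with the call lost without library 2, 4, 21, 22, 23 or 24 (0.57 without library 4). Bst1, an ectoenzyme that consumes NAD, had 28.4 to 67.7 CPM in 4T1 CTRL, against 7.49 to 16.9 CPM in CD8 CTRL (1.87, adjusted p = 0.000721), and Nadk, the NAD kinase, had a mean of 83.5 ± 13.3 CPM in 4T1 CTRL, against 45.3 ± 10.3 CPM in CD8 CTRL (0.90, adjusted p = 0.00328). Sirt1, an NAD-dependent deacetylase, was lower at -1.08 (adjusted p = 0.00173), and Nmnat2, an enzyme of NAD synthesis, at -3.05 (adjusted p = 0.0146, and -3.71 without library 1), a call lost without library 22 (adjusted p 0.051).

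Of 21 cell cycle genes 3 were higher and 5 lower (median 0.26), a share near that of all genes tested. Ccnd1, a D-type cyclin, had 546, 912, 529, 1071 and 786 CPM in 4T1 CTRL, against 139, 99.6, 173, 188 and 249 CPM in CD8 CTRL (2.19, SE 0.25, adjusted p = 6.91e-05), and its relative Ccnd2 had 182 to 274 CPM in 4T1 CTRL, against 844 to 1134 CPM in CD8 CTRL (-1.96, SE 0.17, adjusted p = 1.91e-05). The proliferation marker Mki67 had a mean of 114 ± 4.37 CPM in 4T1 CTRL, against 97.4 ± 22.2 CPM in CD8 CTRL, and did not pass (0.26, adjusted p = 0.251). Of 25 cytosolic ribosomal protein genes, which have many processed copies in the genome, 22 were lower and 0 higher (median -0.85), with Rps18 at -1.28 (adjusted p = 8.68e-05). Of 13 mitochondrially encoded genes 7 were tested, 2 were higher and 0 lower (median 0.67), a share below the 35.1% of all genes tested. Without libraries 1 and 3 the count was 0 and the median 0.04. The mitochondrial genes mt-Nd4l, mt-Co2, mt-Co3 and mt-Atp8, which every cell uses, are listed at 0 in both groups, so they carry no information here.

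The same contrast in mice that received C269 gives libraries that the results above do not use. With 5 libraries a side, 11982 genes were tested, 1152 passed (9.61%), 592 higher in 4T1 C269 (4.94%) and 560 lower (4.67%). These counts depend on single libraries: the higher count was 260, 278, 312, 336 and 360 without libraries 9, 10, 28, 26 and 30 in turn. The lower count was 248, 271, 284, 285, 295 and 303 without libraries 26, 28, 10, 9, 30 and 6. Of the 2418 genes higher in 4T1 CTRL, 2307 were tested again and 2127 had the same sign (92.2%), and 404 passed in both, which is 16.71% of the control calls and 68.24% of the C269 calls. Of the 1799 lower genes, 1757 were tested again, 1619 had the same sign (92.15%) and 479 passed in both, 26.63% of the control calls and 85.54% of the C269 calls. No gene passed in opposite directions. The T cell receptor list repeated with 12 of 16 members lower (median -4.18), and Cd8a stood at -6.73 (adjusted p = 5.91e-06). Epithelial genes had 9 of 27 tested members higher (median 3.36), with Epcam at 4.56 (adjusted p = 0.0367) and Krt8 at 3.89 (adjusted p = 0.0223).

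Libraries 9 and 10 of 4T1 C269 stood apart, with S100a8 and S100a9 at 0.0074% and 0.0086% of counts, against 0.268% to 1.15% in libraries 6 to 8. With all libraries, fibroblast genes had a median of 1.56 with 1 of 14 members passing, neutrophil genes 2.83 with 2 of 17, and chemokines and growth factors 0.15 with 0 of 19. Without libraries 9 and 10, 12362 genes were tested in all, of which 552 were higher in 4T1 C269 and 474 lower. The fibroblast median was then 1.96 with 1 of 14 passing, and the neutrophil median 3.62 with 15 of 19. The chemokine and growth factor median was 0.90 with 2 of 19. Cd274 was at 1.01 (adjusted p = 0.452) and Vim at 0.34 (adjusted p = 0.806) in C269, against 1.37 and 1.70 in control, and without libraries 9 and 10 both passed in C269, at 1.71 (adjusted p = 0.0155) and 1.04 (adjusted p = 0.0477). The epithelial values moved the other way. Without libraries 9 and 10 the epithelial median was 1.33 with 2 of 26 higher, Krt8 was at 1.92 (adjusted p = 0.0446), and Epcam at 2.02 did not pass (adjusted p = 0.159). The T cell receptor list then had 13 lower and 1 higher (median -3.59), and Cd8a stood at -6.63. The test of the difference itself, the change of the population contrast between C269 and control, called 0 of 13676 genes by edgeR (0.0%), with 1488 at an unadjusted p under 0.05 and a smallest adjusted p of 0.171. DESeq2 called 1.55% of 17322 genes on the same question. A difference in list medians between the arms is therefore a description and was not shown for any single gene by edgeR.

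**Figure D5:**
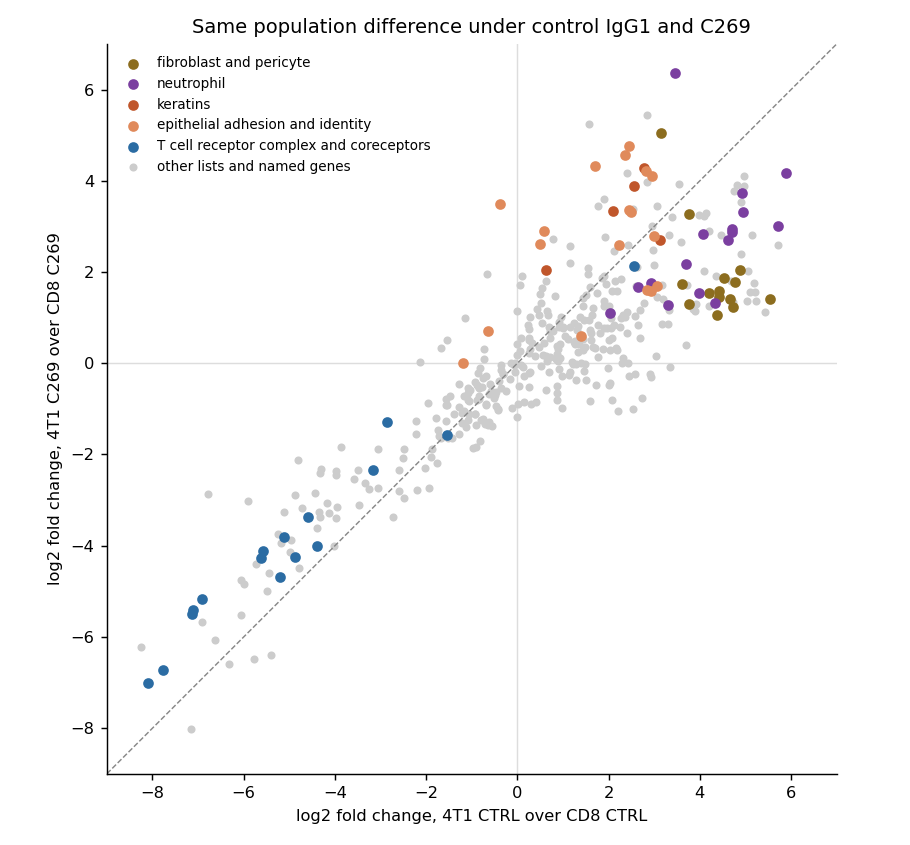
Log2 fold change of 4T1 C269 over CD8 C269 (vertical) against that of 4T1 CTRL over CD8 CTRL (horizontal) for the listed and named genes, with the line of equal values dashed. T cell receptor genes (blue) other than Trdc lie at the lower left, and fibroblast and neutrophil genes, with medians of 4.42 and 4.13 in control and 1.56 and 2.83 under C269, lie mostly below the line. All 5 libraries of each group enter both axes, 4T1 C269 libraries 9 and 10 included.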

How the data were processed

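RNA was sequenced from 30 libraries in 6 groups of 5. Per the submitters' processing notes, FastQC, featureCounts and DESeq2 were used and the build is mm9. The sources used here name no aligner, version or strand setting, so antisense and overlapping genes are uncertain, and so are near-identical copies (ribosomal proteins, globins, granzymes, Klrc and stefin genes). The 3 deposited tables, 1 per population, hold whole-number counts without normalization. The other columns that the authors deposited were not tested: baseMean is a signal (mean of counts over size factors), the fold change is on a log2 scale, the Wald statistic is a score, and p-values come with it. Gene starts matched GRCm38 (54928 of 55141 found among 55401 genes, 99.6%), so coordinates are GRCm38.

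Libraries are numbered in the tables and carry no titles. Groups follow from the condition columns, each of which 1 set of 5 libraries sums to in 100% of genes (at most 26.5% for any other set). The 7 ribosomal RNA rows (0.962% to 5.85% of counts in 4T1 CTRL, 3.18% to 5.08% in CD8 CTRL) were left out. In R 4.3.3, edgeR 4.0.16 fitted the 10 libraries of the comparison (filterByExpr, TMM, glmQLFTest, glmTreat against a fold of 2), with p-values adjusted by Benjamini-Hochberg across all genes in the fit and called under 0.05. C269 libraries had a fit of their own, and the interaction a fit of 20 libraries. The 6 markers were tested with a two-sided exact permutation test (scipy 1.17.1, Python 3.11.15) on log2(CPM + 1). DESeq2 1.42.0 and limma 3.58.1 gave alternatives. Floors are 3 counts and cover counting error only.

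The members and 35 gene lists (522 of 524 symbols found) were chosen with earlier results of these data known. The rule for named genes takes, in each direction, the 10 largest fold changes past 2-fold whose groups do not overlap and whose higher mean is at least 50 CPM (no Gm, Rik or mt- symbols). It adds up to 2 passing members per list and direction with the smallest p, or 1 where none passes, and Krt8, Epcam, Cd3e, Cd8a, Ptprc, S100a8, Nampt, Cd274, Pdcd1 and Ifng. Some genes under this rule are not described. Genes outside it (such as Thy1, Cd3d, Cd247, Trdc, Lck, Xcl1, Gzma, Ccl4, Cdh1, Col1a1, Col3a1, S100a9, Cxcl2, Cxcl12, Csf2, Csf3, Slc2a1, B2m and Mki67) were chosen after their values were seen. Promoter sequences are from RefSeq (GRCm38.p6).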

Additional observations from a re-analysis of the deposited data

Results flagged for a closer look

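In 31 of 220 groups of 5 libraries, the highest or lowest value stood apart from the other 4 by the gap test of Dixon, which chance does in about 1 of 20 groups. They fall together by library. Library 5 was highest in 4T1 CTRL for Podn (200.2 CPM), Lum (509.8), Sfrp4 (295.7), Cpxm1 (553.0), Cygb (348.4), Eln (307.9), Serpinf1 (443.3), Lamb2 (184.6), Pdgfra (184.9) and Col6a1 (335.9), and lowest for Klrk1 (6.58). Library 2 was highest for Krt8 (183.1), Krt18 (277.3), Snai1 (77.09), Mmp8 (180.6), Ccl3 (891.0) and Dapl1 (11.5), and lowest for Ccnd2 (181.9). Library 4 was highest for Tjp1 (64.22) and Spi1 (232.8). Among low counts, library 1 was highest for Tdrp (0.8553) and Pdcd1 (6.629), and library 3 for Slc17a6 (2.24), Cd5 (3.584), Gzmk (2.464) and Klrc2 (2.464). In CD8 CTRL, library 25 was highest for Krt18 (37.91), Lamb2 (6.08) and Mmp14 (94.42), library 22 lowest for Col6a1 (1.697) and library 23 lowest for Runx3 (533.0). All values are CPM.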

How the results depend on the processing

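Leaving out 1 library gave 2176 to 2416 genes higher and 1412 to 1850 lower in 4T1 CTRL, 1021 to 1167 and 298 to 478 past 2-fold, 260 to 743 and 248 to 538 in the C269 contrast, and log2 differences of 2.163 to 2.647 for Krt8, 1.685 to 2.258 for Epcam, -5.419 to -4.731 for Cd3e, -8.292 to -7.636 for Cd8a, -2.017 to -1.648 for Ptprc and 4.248 to 4.735 for S100a8. In control, the settings gave between 52.9% and 61.4% of calls higher, and DESeq2, which tested more genes, 3461 higher and 2213 lower. The median log2 fold change of all genes, -0.01 in the fit reported, was 0.21 with DESeq2 and 0.26 with no filter, each of which tests more genes with few counts. No gene named by the rule changed direction under these settings. With libraries 1 and 3 left out, the medians of the dendritic, plasma cell and NAD lists changed sign. Many list members outside the named genes did so too, among them Ms4a1, Cd22, Cd79b, Fcrla, Spib, Trdc and Ighm. Further examples are Igkc, Igha, Ighg1, Iglc2, Jchain, Flt3, H2-Oa, H2-Ob, Nr4a1 and Itgb3. Without libraries 1 and 3, 858 genes were lower past 2-fold. In the C269 contrast DESeq2 called 2247 higher and 1000 lower, no filter on low counts gave 347 lower, and DESeq2 called 1.55% of genes in the interaction.

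List counts moved as follows. Without libraries 1 and 3: 1 epithelial gene lower, 1 dendritic gene higher and 3 lower, 1 B cell gene higher and 1 lower, 1 plasma cell gene lower, 0 erythroid genes higher, 1 class I gene higher, 1 class II gene lower, 5 cell cycle genes higher and 0 mitochondrial genes higher. With TMM on all genes but globins and immunoglobulins: 1 erythroid and 1 class I gene higher. Mitochondrial genes higher were 4 with that setting, with RLE factors, with library totals, and without library 2 or library 5. Without library 2, chosen after seeing the data, 0 dendritic genes, 0 mast cell genes (also without library 5) were lower, 5 plasma cell genes (also without library 5) and 0 platelet genes were higher. Without library 5, also chosen after seeing the data, 1 checkpoint receptor was higher. The cause was not tested. DESeq2 kept the calls of 110 of 110 named genes and the fit of all 30 libraries of 101. Calls were lost in at least 1 setting for Itga6, Gata3, Flt1, Itgax, Fscn1, Ccr7, Kit, Cr2, Xbp1, Hbb-bs, Hba-a1, Ppbp, Pf4, Cd53, Tnf, Cd274 (1.33 in the fit of all 30 libraries), Nmnat2, mt-Co1, mt-Cytb, Junb and Nampt.

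No paired analysis was possible because the library columns carry no replicate letters. Isolation method and population cannot be told apart. Genes with few counts in 4T1 CTRL are limited by depth: 0 counts over libraries 2, 4 and 5 allow up to 0.325 CPM.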
